A study of Mus musculus with 20 samples.

Results

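Bilophila was followed in the feces of mice given chemotherapy, by 16S rRNA gene sequencing, a method that reads a stretch of a gene carried by all bacteria and assigns each read to a taxon. The taxa were every entry of the phylum Desulfobacterota_I at family, genus and species rank, in each of the 20 samples. Only 1 lineage of that phylum held reads: Desulfovibrionaceae, genus Bilophila, species Bilophila wadsworthia. It was 1 of 45 families and 1 of 149 genus entries with a count. The same 10193 reads appeared at all of these ranks, so family, genus and species values were identical in every mouse. The entries Mailhella and Desulfovibrio_R_446353 of the same family were at 0 in all 20 samples, which allowed a share of up to 0.0174% (3 counts) in the shallowest sample. Taurinivorans and Lawsonia, listed with the same family, had no entry, so the counts cannot show whether they were present. All names are those that the authors' classification gave, and the species was not checked by other means. Bilophila was chosen by its higher share of reads in chemotherapy-treated than in control mice. Its values in that comparison are therefore given as a description, without a test.

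The feces came from C57BL/6 mice, females of 8 to 14 weeks that were co-housed before the experiments, and were collected 5 days after treatment. The FO group (10 mice) received oxaliplatin, a platinum drug that crosslinks DNA, at 3.5 mg/kg into the peritoneum. It then received 5-fluorouracil, a pyrimidine analogue that blocks thymidylate synthesis, at 50 mg/kg after 1 hour and again the next day. The control group (10 mice) received vehicle on the same schedule, which the labels give as PBS or water and the study describes as PBS for the fecal profiles. Each group held 5 mice of batch E53B and 5 of batch E56A. The labels do not say what a batch shares, the study describes the fecal profiles as coming from 2 independent experiments, and the cage of each mouse was not known. The shallowest sample (FO replicate 6) had 17218 reads and the deepest (control replicate 2) 57415, and the group medians were 45187 reads in control and 50102 in FO mice. All values are shares of reads and not numbers of bacteria, so more Bilophila and fewer other bacteria cannot be told apart.

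Bilophila is an anaerobe of the gut mucosa that does not live on sugars. It takes up the sulfonic acid taurine, splits sulfite from it and uses the sulfite as the electron acceptor of its respiration, releasing hydrogen sulfide. In mice most bile acids are conjugated to taurine, and taurine becomes free when other gut bacteria cut the conjugates with bile salt hydrolases. Bilophila is known for growing on diets that raise taurine-conjugated bile acids. The read counts analysed here hold no measure of bile acids or sulfide. In portal blood, the study reports a rise of metabolites related to bile acids after FO, while taurocholic acid was not changed by FO.

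In control mice, Bilophila was a minor member with a wide spread. Its share of all reads was 0.540% ± 0.269 (SD, n = 10), with a median of 0.632%. In batch E53B, control replicates 6 to 10 stood at 0.808%, 0.744%, 0.349%, 0.780% and 0.571%. In batch E56A, control replicates 1 to 5 stood at 0.628%, 0.120%, 0.636%, 0.695% and 0.0673%. The highest control value was 12.0 times the lowest, and both of the lowest values were in E56A mice. Control replicate 5 had 37 Bilophila reads (95% Wilson interval of its share, 0.0488% to 0.0928%) and control replicate 2 had 69 (0.0950% to 0.152%). The next lowest, control replicate 8, had 153 reads (0.298% to 0.409%), so these differences exceeded counting error.

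In FO mice the share was 1.78% ± 0.601 (SD, n = 10), with a median of 1.65%, which was 3.29 times the control mean. In batch E53B, FO replicates 6 to 10 stood at 1.51%, 1.53%, 3.11%, 1.70% and 2.32%. In batch E56A, FO replicates 1 to 5 stood at 1.96%, 0.863%, 1.76%, 1.60% and 1.41%. All 10 FO values lay above all 10 control values, although the ranges were close, with 0.0548 percentage points between FO replicate 2 and control replicate 6. FO replicate 2 lay well below the next FO mouse, replicate 5 at 1.41%. The highest FO value was 3.61 times the lowest. Ranked by reads among genus entries, Bilophila stood between places 16 and 25 in control mice (median 17.5) and between places 10 and 17 in FO mice (median 14). Of the 59 genera with enough reads for testing, Bilophila was the only 1 in which every FO share exceeded every control share, a background of 1.69%, and this count includes the genus chosen for its difference.

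**Figure D1:**
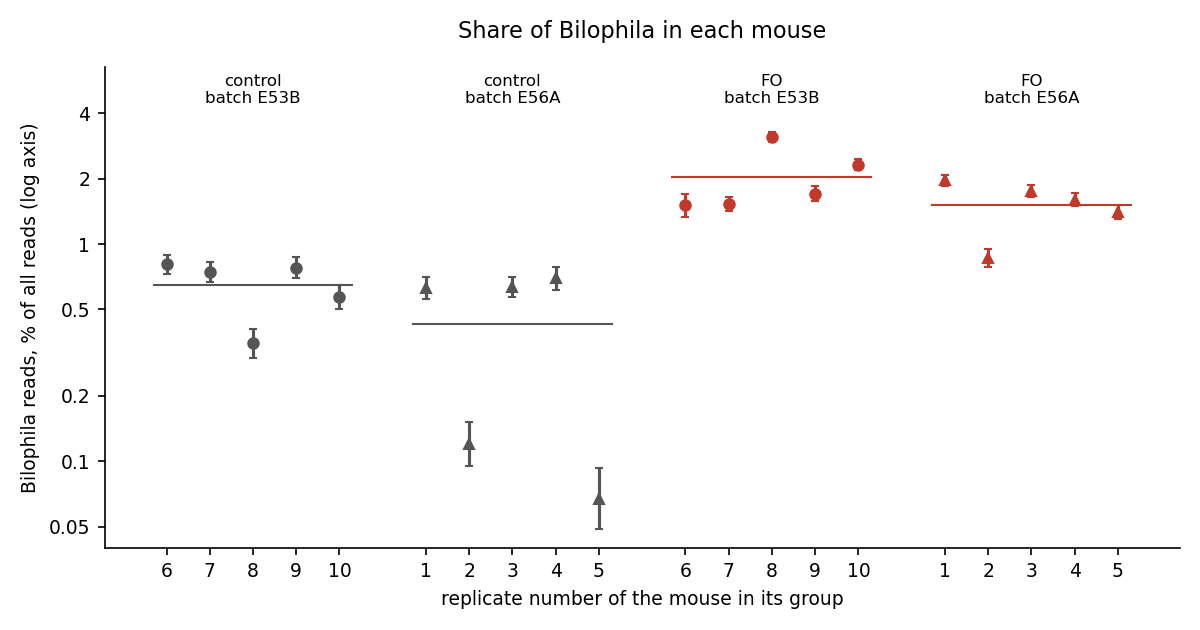
Bilophila reads as a percentage of all reads in each mouse on a log axis, by group and batch, with 95% Wilson intervals for counting error and horizontal lines at the mean of each 5 mice. All FO mice lie at or above 0.863% and all control mice at or below 0.808%, and control replicates 2 and 5 lie far below the other control mice.

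The difference in share was 1.24 percentage points (SE 0.208), with 1.38 points in batch E53B (from 0.651% to 2.03%) and 1.09 points in batch E56A (from 0.429% to 1.52%). On the log2 scale, where the low control mice weigh more, the mean was -1.22 ± 1.25 (SD) in control and 0.76 ± 0.48 in FO mice, a difference of 1.98 or 3.94-fold. The SD between control mice was far above the SD that read counting alone gives, with a median of 0.0877 and a highest value of 0.237 in single mice. In FO mice the counting SD had a median of 0.0517. The shallow FO replicate 6 lay inside the group at 1.51%, and without it the difference in share was 1.27 points.

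The size of the difference depended on which reads it was set against. Muribaculaceae, the family of polysaccharide-degrading Bacteroidota that dominates mouse feces, held 78.9% of reads in control and 53.4% in FO mice. Shares of all reads add up to a fixed total, so they depend on the share of this family. Reads outside Muribaculaceae were 21.1% of the total in control and 46.6% in FO mice. The log2 difference of Bilophila, 1.98, was the sum of 1.15 from the larger pool of reads outside Muribaculaceae (2.22-fold) and 0.83 from the larger part of Bilophila in that pool (1.77-fold). The second term made up 41.8% of the sum in all mice, 29.0% in batch E53B and 51.0% in batch E56A.

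Among reads outside Muribaculaceae, Bilophila held 2.49% ± 1.20 (SD, n = 10) in control and 3.92% ± 1.30 (SD, n = 10) in FO mice. In batch E53B, the control values were 3.51%, 3.43%, 1.95%, 3.75% and 2.74% (replicates 6 to 10) and the FO values 3.60%, 3.36%, 5.93%, 3.64% and 4.82%. In batch E56A, the control values were 1.80%, 0.686%, 2.88%, 3.64% and 0.510% (replicates 1 to 5) and the FO values 4.39%, 1.76%, 3.24%, 2.74% and 5.70%. The groups overlapped on this scale. Above all control mice stood 4 of 10 FO mice (replicates 1, 5, 8 and 10), and 8 of 10 were above the control median. The mean difference was 1.43 percentage points (SE 0.560), 1.20 in E53B and 1.66 in E56A, while the difference between medians was 0.808 points. Of the 51 tested genera outside Muribaculaceae, none had every FO share of these reads above every control share, a background of 0%.

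FO replicate 5 stood apart from the other FO mice, with Muribaculaceae at 75.3%, inside the control range of 65.2% to 86.8%, against 41.5% to 58.1% in the other 9. Its Bilophila share was still 1.41% of all reads and 5.70% of reads outside Muribaculaceae, the latter the next to highest of all 20 mice. Control replicate 1 had the lowest Muribaculaceae share of its group, 65.2%, and a Bilophila share of 1.80% of the remaining reads, below 7 of the other 9 control mice. Without FO replicate 5 the difference was 1.28 points of all reads and 1.23 points of reads outside Muribaculaceae, and without control replicate 1 it was 1.25 and 1.35 points.

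**Figure D2:**
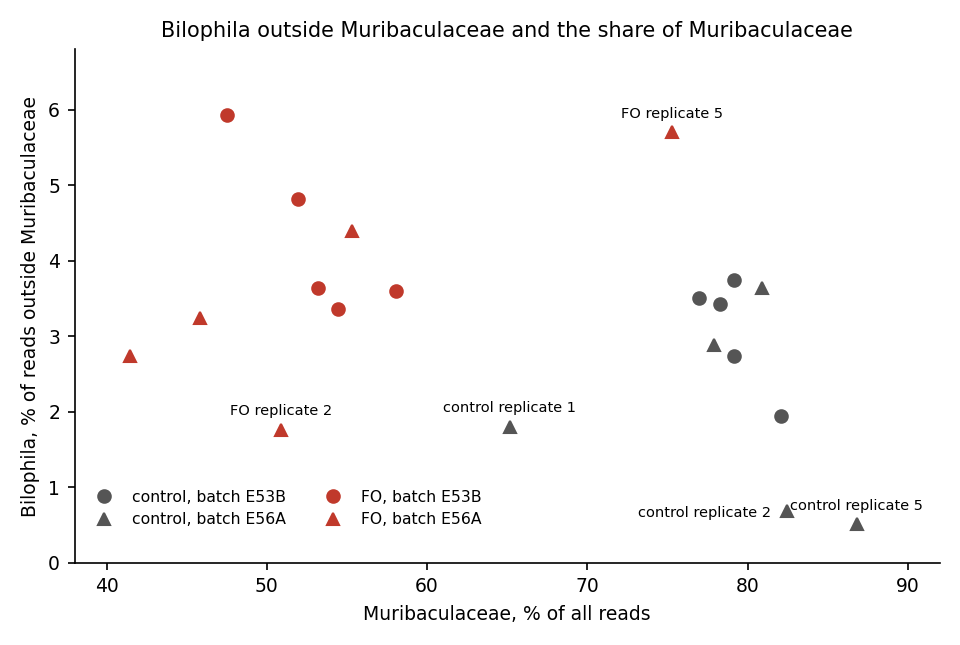
Bilophila as a percentage of reads outside Muribaculaceae against Muribaculaceae as a percentage of all reads, 1 point per mouse, with colour for group and marker for batch. The FO mice spread from 1.76% to 5.93% and the control mice from 0.510% to 3.75%, and FO replicate 5 combines a Muribaculaceae share in the control range with 5.70% Bilophila.

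A ratio of Bilophila to 1 other family does not move when another family changes. Bacteroidaceae, saccharolytic Bacteroidota, held 5.88% of reads in control and 10.7% in FO mice. For every 100 of their reads there were 13.1 Bilophila reads in control and 21.6 in FO mice (means of 10), and the log2 ratio differed by 1.03 (SE 0.63), by 0.61 in E53B and 1.46 in E56A. It was 0.65 without control replicate 5 and 0.29 between group medians. Only 4 of 10 FO mice exceeded all control mice, and the control ratios reached from -7.00 in replicate 5 to -2.01 in replicate 4. Rikenellaceae, Bacteroidota that include Alistipes, held 1.35% in control and 2.45% in FO mice. Bilophila reads per 100 of Rikenellaceae were 42.6 in control and 82.1 in FO mice (means of 10), the log2 ratio differed by 1.16 (SE 0.48), and 7 of 10 FO mice exceeded all control mice. In FO replicates 5, 6, 8, 9 and 10 Bilophila had more reads than Rikenellaceae, which was so in no control mouse. FO replicate 2 fell far below the other FO mice, with 17.5 Bilophila reads per 100 of Rikenellaceae.

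The other 2 reference families were Clostridia. Lachnospiraceae, which include many makers of short-chain fatty acids, held 6.98% of reads in control and 15.8% in FO mice. Bilophila reads per 100 of Lachnospiraceae were 7.26 in control and 11.6 in FO mice, and the log2 ratio differed by 0.72 (SE 0.24), by 0.69 in E53B and 0.76 in E56A, and by 0.43 between group medians. On this scale 5 of 10 FO mice exceeded all control mice. Oscillospiraceae_88309, a family of slow-growing Clostridia, held 3.28% in control and 8.73% in FO mice. There the log2 ratio differed by 0.45 (SE 0.21), by 0.18 (SE 0.23) in E53B and 0.72 (SE 0.33) in E56A, and by 0.38 between group medians, and 8 of 10 FO mice lay within the control range. In E53B this last difference was smaller than its standard error.

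**Figure D3:**
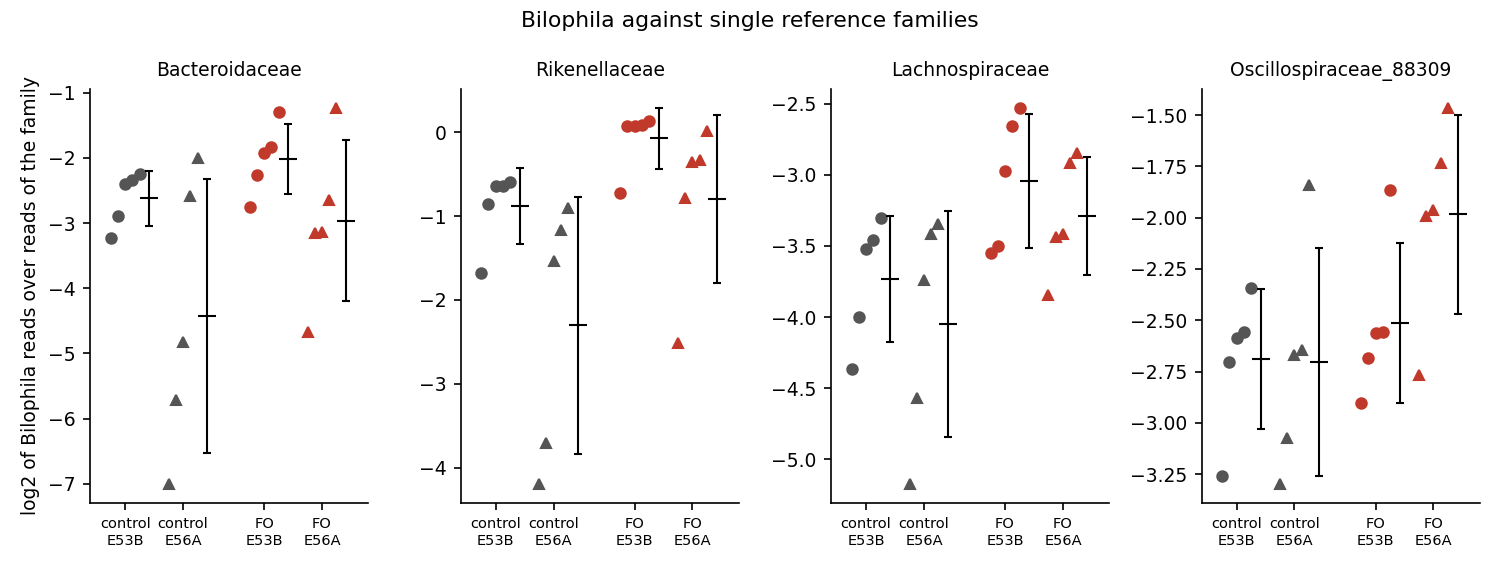
The log2 ratio of Bilophila reads to the reads of each of 4 families (a pseudocount of 0.5 was added to both), 1 point per mouse by group and batch, with the mean and SD of each 5 mice in black. The FO means lie above the control means of the same batch in every panel, by 0.18 (Oscillospiraceae_88309, E53B) to 1.51 (Rikenellaceae, E56A), and the points of the groups overlap in every panel.

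Set against each of the 16 other families with a mean share of at least 0.1%, the mean log2 ratio of Bilophila was higher in FO mice against 14 and lower against 2, namely Turicibacteraceae (-0.18) and Akkermansiaceae (-2.37). The value for Turicibacteraceae averaged opposite differences, -2.71 in E53B and 2.35 in E56A. The ratio of Bilophila was higher in both batches against 13 families. The ratio of every FO mouse exceeded that of every control mouse against 1 family, Muribaculaceae, with a mean difference of 2.55. Of all 136 pairs among these 17 families, 2.21% showed ratios that did not overlap between the groups. With the median over its 16 ratios as the measure, Desulfovibrionaceae stood in place 3 of the 17 with 0.86, after Akkermansiaceae (3.23) and Turicibacteraceae (1.04) and close to Mucispirillaceae (0.77). Akkermansia had a median share of only 0.00749% in control mice, so the value of its family rests on few reads there. Against the geometric mean of the tested genera (centred log ratio), Bilophila differed by 1.15 (SE 0.29), and 7 of 10 FO mice exceeded all control mice.

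**Figure D4:**
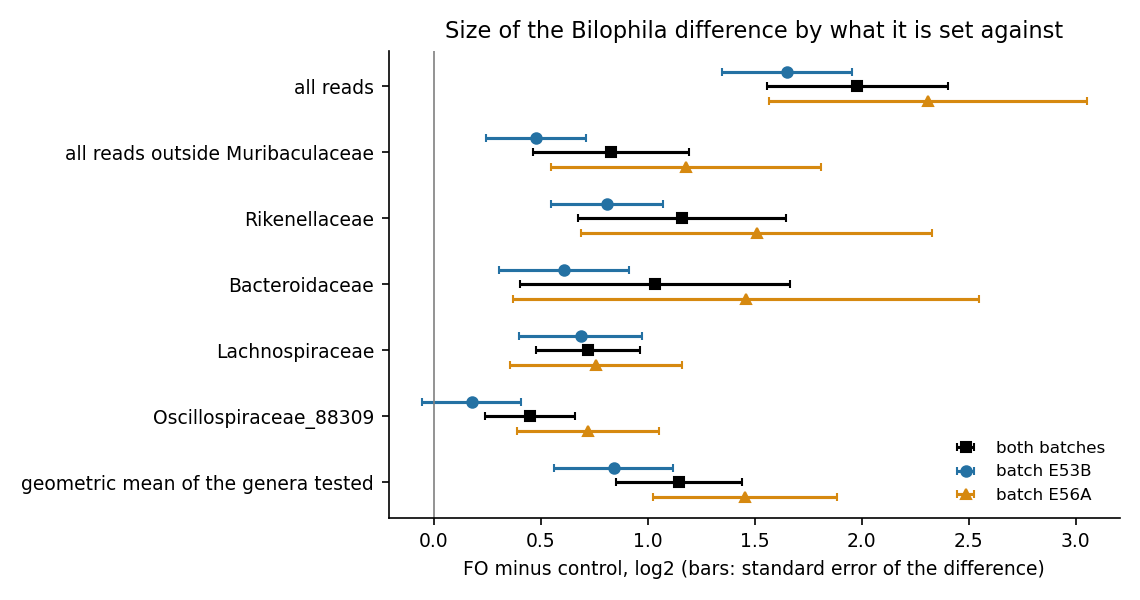
Difference of Bilophila between FO and control mice in log2 units, with standard errors. It is set against all reads, reads outside Muribaculaceae, each of the reference families or the geometric mean of the tested genera. Values are for both batches together (n = 10 per group) and each batch (n = 5 per group). The difference runs from 1.98 against all reads to 0.45 against Oscillospiraceae_88309, and is larger in E56A than in E53B in every row.

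In a model across the counts of all 59 genera (edgeR, TMM scaling, batch as a term), the log2 fold change of Bilophila was 1.10 with an SE of 0.28, against a median of 0.23 over the 59 genera. That model called 22% of the genera in either direction and 10.2% higher in FO mice at 5% false discovery (Benjamini-Hochberg). Since Bilophila was chosen on this contrast, its own place in those counts is not read as a result. With scaling by the total count, the median of all genera moved to 0.99, Bilophila to 1.73, and 42.4% of the genera were called higher. The TMM estimate of Bilophila was 0.70 within E53B and 1.39 within E56A. It was 0.85 when the genera outside Muribaculaceae were fitted alone, where 47 genera passed the filter on low counts anew, 0 were called by edgeR and 9 had an unadjusted p under 0.05.

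Whether Bilophila depended on the batch had no part in its choice and was tested. In control mice the mean log2 share was -0.68 in E53B and -1.76 in E56A. This 2.11-fold difference did not pass an exact permutation test (two-sided, 5 against 5 mice, p = 0.214, adjusted over the 3 batch tests 0.321), and the 95% interval of the log2 difference ran from -0.50 to 3.08. In FO mice the means were 0.97 and 0.55, a 1.33-fold difference (exact permutation test, p = 0.214, adjusted 0.321, interval from -0.21 to 1.12). The smallest p that 5 against 5 mice allow is 0.00794. The FO difference itself was 1.65 in E53B and 2.31 in E56A, and the gap of -0.66 did not pass (exact permutation test, p = 0.455, adjusted 0.455). Its interval, from -3.98 to 0.94, leaves room for a large gap in favour of E56A. The test of this gap exchanged batch labels within each group. Batch differences in either group therefore also enter its p and interval. In percentage points of share the order turned, with a larger FO difference in E53B by 0.296 points (exact permutation test, adjusted p = 0.521). The gap rested largely on the low control mice of E56A. It was -0.13 without control replicate 5 and -0.33 without control replicate 2, and without control replicate 5 the batch difference in control mice was 0.54. The batch difference in FO mice was 0.23 without FO replicate 2 and 0.25 without FO replicate 8.

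The batch terms were also fitted across the counts of all genera. The edgeR interaction of treatment and batch for Bilophila was -0.48 ± 0.55 (SE, adjusted p = 0.840). No genus passed (0 of 59, or 0%), 6 had an unadjusted p under 0.05, and DESeq2 called 1. Between the batches, Bilophila differed by 0.49 ± 0.39 in control mice (edgeR, adjusted p = 0.455), where 1.69% of genera were called, and by 0.01 ± 0.39 in FO mice (edgeR, adjusted p = 0.992), where 3.39% were called. For Bilophila, the interaction was -0.18 with scaling by the total, -0.24 with RLE scaling and -0.46 in DESeq2. With single mice left out, the edgeR interaction ran from -0.63 to -0.15 (the latter without control replicate 2, and -0.19 without control replicate 5). The contrast in control mice ran from 0.43 to 0.87, with 0.87, 0.77, 0.83 and 0.81 without control replicates 1, 3, 4 and 8.

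Within each group, the log2 share of Bilophila among reads outside Muribaculaceae was set against the log2 odds of Muribaculaceae and against depth, 4 relations in all. Both axes of the first kind are built on the reads outside Muribaculaceae, so they are not independent by construction. With Muribaculaceae, Pearson's r was -0.48 in 10 control mice (permutation p = 0.192, adjusted 0.267) with rho -0.36 (p = 0.313, adjusted 0.417), and 0.44 in 10 FO mice (permutation p = 0.200, adjusted 0.267) with rho 0.42 (p = 0.234, adjusted 0.417). Without the 2 mice farthest from the median of Muribaculaceae, r was -0.72 in control mice (adjusted 0.0898), while rho was -0.40 (adjusted 0.841). In FO mice r was then -0.03 and rho 0.10, so the relation in FO mice rested on the mice left out. With the log2 total count, r was -0.74 in control mice (permutation p = 0.0144, adjusted 0.0575) and rho -0.65 (p = 0.0488, adjusted 0.195). Control replicates 2 and 5, lowest in Bilophila, had the largest totals of their group, 57415 and 54960 reads. Without the 2 mice farthest from the median total, r was -0.60 (permutation p = 0.129), and with batch means removed it was -0.66 (adjusted 0.161). In FO mice r was -0.02 (adjusted 0.950) and rho -0.02 (adjusted 0.973). None of the 4 relations passed after adjustment. The part of depth in the control spread was not tested further. With every sample drawn down to 17218 reads, the difference in share was 1.24 percentage points. Random draws keep the expected share of each mouse, so this value does not bear on the relation to depth.

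The genera that moved most like Bilophila between mice were found by Spearman's rho of centred log ratios over the 20 mice, after the mean of each group and batch was removed. The 25 named genera compared had a mean share of at least 0.1%. These values describe 20 mice whose ratios share a denominator, and no test was made. The highest were Lawsonibacter (0.58), Enterenecus (0.47) and Dysosmobacter (0.46), all of Oscillospiraceae_88309. All 3 had a rho above 0.3 in control and in FO mice taken alone. They also held the first 3 places, at 0.65, 0.58 and 0.57, with shares of reads outside Muribaculaceae in place of centred log ratios. Evtepia, of the same family, stood at -0.13 by centred log ratios and at 0.07 with shares outside Muribaculaceae. The lowest were Muribaculum (-0.49), CAG-873 (-0.49) and Duncaniella (-0.42), all of Muribaculaceae. For these, rho was -0.93, -0.81 and -0.67 in the 10 control mice and 0.09, 0.07 and 0.10 in the 10 FO mice. On the scale of shares outside Muribaculaceae they stood at -0.25, -0.20 and -0.33, and the lowest of the 25 was Bacteroides_H at -0.64.

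**Figure D5:**
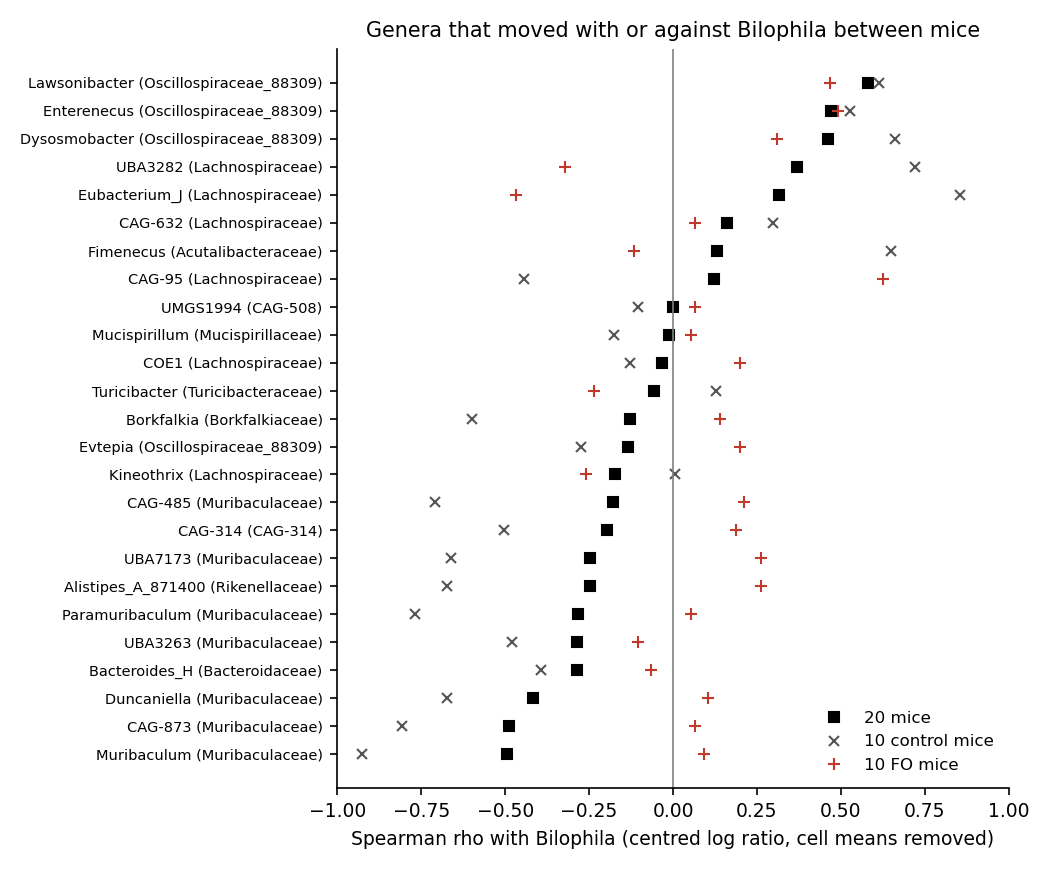
Spearman's rho between Bilophila and each of 25 genera over 20 mice (squares), 10 control mice (crosses) and 10 FO mice (plus signs), with the mean of each group and batch removed and genera ordered by the value over 20 mice. The 3 Oscillospiraceae_88309 genera at the top lie above 0 in both groups, while the 3 Muribaculaceae genera at the bottom lie below -0.6 in control mice and near 0 in FO mice.

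Bacteria that can supply or share the niche of Bilophila were taken from fixed lists. Of 8 listed genera known to carry bile salt hydrolases, which free taurine from bile acids, 6 had a count and 3 had enough reads for testing. None of the 3 passed in either direction, against the 22% of all genera called by edgeR, and their median log2 fold change was 0.14 (0.23 over all genera). Bacteroides_H, the most abundant of them, held 5.87% ± 4.53 (SD) of reads in control and 10.7% ± 5.45 in FO mice, with a range of 2.80% to 17.8% in control and 3.29% to 22.1% in FO mice. Its log2 fold change was 0.14 ± 0.32 (SE, edgeR adjusted p = 0.826) with TMM and 0.91 with scaling by the total (adjusted p = 0.0127), so its call depended on the scaling. With RLE scaling it was -0.01, so no direction is given. Lactobacillus, which carries hydrolases in many strains, held 0.0238% in control and 0.110% in FO mice, with a log2 fold change of 0.93 ± 0.99 (edgeR adjusted p = 0.554). Parabacteroides_B_862066 was at -0.21 ± 0.47 (edgeR adjusted p = 0.826). The other 3 with a count had too few reads for testing. Ligilactobacillus had a lower mean in FO mice, 0.0144% against 0.0320% in control mice, with overlapping ranges. Limosilactobacillus had 39 reads and Bifidobacterium_388775 had 2 in all mice together.

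Of 4 listed genera of the mucus layer or with respiration of their own, all had a count, 2 were tested and 1 passed, against 22% of all genera called and 10.2% called higher. Mucispirillum, a nitrate-respiring dweller of the mucus, rose from 0.166% ± 0.0873 (SD, n = 10) to 0.726% ± 0.571 (n = 10). Its control values ran from 0.0328% to 0.310% and its FO values from 0.136% to 1.76%, and 6 of 10 FO mice exceeded all control mice. Its log2 fold change was 1.34 ± 0.39 (SE, edgeR adjusted p = 0.0163). The direction held with every mouse left out in turn, but the call was lost without FO replicate 4 (0.94, adjusted p = 0.0726) or 10, without control replicate 2, 4, 5, 8 or 9, and in the fit of genera outside Muribaculaceae alone (1.02, edgeR adjusted p = 0.0842). It passed within E53B (1.37, edgeR adjusted p = 0.0198) and not within E56A (1.16, edgeR adjusted p = 0.337). Over the fits with 1 mouse left out, the log2 fold change ran from 0.94 to 1.54. Escherichia_710834, a facultative anaerobe, was at 0.34 ± 0.72 (edgeR adjusted p = 0.826). Akkermansia, which degrades mucin, did not have enough reads in enough mice to be tested. Its share ran from 0.00456% to 0.992% in control mice (median 0.00749%) and from 0.00561% to 2.09% in FO mice (median 0.341%), and 4 of 10 FO mice exceeded all control mice. Helicobacter_C_479931 had 2 reads, both in 1 mouse. The list of hydrogen users held no genus with a count, and Desulfovibrio, which it shares with the family of Bilophila, was listed at 0 in all 20 mice.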

How the data were processed

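Fecal DNA of 20 mice was profiled over the V4 region of the 16S rRNA gene on an Illumina MiSeq. According to the methods, the authors trimmed reads with cutadapt, then merged, filtered, clustered and classified them against Greengenes2 in QIIME2, and the labels' processing notes name bcl2fastq 2.2. The deposited values are raw read counts per taxon, which the authors left without normalization, in 6 tables from phylum to species. Reads with no genus (7.72%) stayed in the totals.

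Shares, shares outside Muribaculaceae and log2 ratios (pseudocount 0.5) were computed per mouse from the counts. Genus counts were fitted in edgeR 4.0.16 (R 4.3.3) by its quasi-likelihood method, with TMM scaling, filterByExpr by treatment, batch as a term, and Benjamini-Hochberg adjustment at 5%. DESeq2 1.42.0, other scalings, no filter, single batches and each mouse left out were alternatives, and those for Mucispirillum and Bacteroides_H were added after the data were seen. Single measures of Bilophila were compared between batches by exact permutation tests, and relations by 100000 permutations (Python 3.11.15, scipy 1.17.1). Intervals of batch differences hold the shifts that the exact test does not reject. Wilson intervals cover counting error only. P-values measure the spread between mice of 2 batches, and cages were not known. The edgeR and exact tests were tested on simulated data.

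Bilophila and the lists were chosen with earlier results of these data known. Taxa named were every Desulfobacterota_I entry with a count, the 4 reference families, Muribaculaceae, the listed genera with a count (in full from a mean share of 0.1%), and the 3 genera most and least like Bilophila by the rho described. Entries at 0, genera of the family list with no entry, and families or genera that a result turns on were also named, after their values were seen. The files hold no 16S sequences, so none is shown.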

Additional observations from a re-analysis of the deposited data

Results flagged for a closer look

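In 16 groups of 10 mice, over the measures used here, each group's highest and lowest mouse was compared with the others by Dixon's gap test. It marked 2 mice, where chance gives about 0.8. The total count of FO replicate 6 was 17218, against 47113 ± 6479 (SD) in the other 9 FO mice, which ran from 35064 to 53509. Its share of Bilophila, 1.51%, lay within the FO range. The log2 ratio of Bilophila to Rikenellaceae in FO replicate 2 was -2.52, against -0.20 ± 0.36 (SD) in the other 9 FO mice. That mouse had the lowest Bilophila share of its group, 0.863%, and the highest share of Rikenellaceae, 4.94%.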

How the results depend on the processing

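The difference of Bilophila in share, in share outside Muribaculaceae and in all 4 family ratios kept its direction under every alternative run. For the share of all reads, all 10 FO values lay above all 10 control values. Leaving out mice, single batches or group medians could therefore not turn it. Bilophila was also chosen on this contrast, so the kept direction is a description only. The edgeR fold change kept its direction as well and ran from 0.78 to 1.21 with single mice left out. That fold change was 0.98 with RLE scaling and 0.98 with DESeq2. The share difference ran from 1.09 to 1.34 points and that outside Muribaculaceae from 1.21 to 1.67 with single mice left out. The number of genera called was less stable. It was 13 with TMM, 29 with scaling by the total (25 higher and 4 lower) and 0 with genera outside Muribaculaceae alone, and 6 to 18 with single mice left out, with 8 without FO replicate 4 or control replicate 2, 7 without control replicate 5 or 9, and 6 without control replicate 8. The cause was not tested. In percentage points instead of log2 share, the FO difference was larger in E53B by 0.296 points (exact permutation test, adjusted p = 0.521), the reverse of the log2 order, and with single mice left out the log2 gap ran from -0.97 to -0.13. The edgeR batch contrast in FO mice ran from -0.11 to 0.34 with single mice left out. It turned negative without FO replicate 2 (-0.09), 4 (-0.03), 8 (-0.07) or 10 (-0.11). The contrast was 0.42 with scaling by the total, 0.25 with RLE scaling and 0.24 in DESeq2. Genera called between the batches in FO mice numbered 2 with TMM, 7 in DESeq2, 4 without FO replicate 4 and 0 without FO replicate 7. In FO mice, r with Muribaculaceae was -0.0335 without the 2 mice farthest from the median, and r with depth was 0.25 with batch means removed and 0.27 for the ratio to Lachnospiraceae. The edgeR fold change of Bacteroides_H, 0.14, turned to -0.0051 with RLE scaling, -0.0088 with DESeq2 and -0.16 with genera outside Muribaculaceae alone, and ran from -0.18 to 0.30 with single mice left out. No paired analysis was possible because the labels give no number that ties a control mouse to an FO mouse. With 10 mice per group and no count of bacteria, neither small batch differences nor changes in absolute numbers could be resolved.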
